A study of Homo sapiens with 8 samples.

Results

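Transcripts that GENCODE release 29 annotates as targets of nonsense-mediated decay (NMD) were followed in HEK293 cells, an established human embryonic kidney line. A transcript was included when its annotated type was nonsense-mediated decay, its length in the deposited tables was 300 nt or more and it was listed in all 8 tables. This gave 8871 NMD transcripts from 4808 host genes, out of 146864 annotated transcripts of that length. Just inside the length limit, an NBDY transcript of 305 nt had a mean of 170.4 FPKM, and just outside it a RANBP17 transcript of 296 nt had a mean of 98.8 FPKM. Another 26 NMD transcripts were under the limit, and 8 of these were above 0 in at least 1 library.

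Total RNA of 8 cultures was sequenced, with 1 library per group. Transfection was with control siRNA or AUF1 siRNA in one pair of cultures. The others took up the empty vector, or Flag-AUF1 as p37, as p40, as p42, as p45 or as the 4 isoforms together ("all isoforms"). AUF1 is the product of HNRNPD, binds AU-rich RNA and is known for its part in mRNA turnover. Passage numbers are labelled unknown, no time after transfection is named, and no group has a second library. No p-value or replicate error can be given for any difference, and a difference between 2 libraries compares those libraries rather than the treatments.

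In NMD, a ribosome that stops upstream of an exon junction leaves the junction's protein complex on the RNA, and the UPF1 helicase and its partners then bring about decay of that RNA. Many genes of splicing factors use this route to limit their own level: they splice in a premature stop codon ("poison" exon) or remove an intron behind the normal stop codon. Transcripts with such a structure are usually short-lived, so their level reflects both how often they are made and how fast they decay.

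The members divide by where the stop codon lies. In 912 of the 8871 transcripts (10.3%) the stop codon was also used by at least 1 protein-coding transcript of the same gene. That coding transcript need not be the main one, so a shared stop is not always the gene's normal stop. The annotated start of the reading frame was missing in 24.6% of the members, so their models are partial. Of the 8864 transcripts with an annotated stop and a junction, 8744 (98.6%) had the stop 50 nt or more before the last junction. The windows below, taken from the GENCODE 29 transcript sequences, show the 2 arrangements at the genes that the results turn on. Each holds 27 bases with the stop codon in capitals, 12 bases on either side. SRSF2, HNRNPA2B1, HNRNPDL and TARDBP show a stop shared with a coding transcript and a later junction.
SRSF2 NMD transcript ENST00000452355: gcggtgtcctctTAAgaaaatgctgcg
SRSF2 coding transcript ENST00000359995: gcggtgtcctctTAAgaaaatgatgta
HNRNPA2B1 NMD transcript ENST00000360787: aggagccgatacTGAgcttcttcctat
HNRNPDL NMD transcript ENST00000349655: taccagccatacTAAaggagaacattg
TARDBP NMD transcript ENST00000477447: aaagtagtgctgTAAatattctgccat
TARDBP coding transcript ENST00000315091: aaagtagtgctgTAAatattctgccat

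The stop lay 209 nt before the last junction in SRSF2, 157 nt in HNRNPA2B1, 127 nt in HNRNPDL and 115 nt in TARDBP. The TARDBP pair has the same 27 letters. SRSF3, SFPQ, HNRNPD and RB1 show the other arrangement, in which the NMD transcript stops at a codon that no coding transcript of the gene uses.
SRSF3 NMD transcript ENST00000477442: ctcaccaccctcTGAatctgcattagc
SRSF3 coding transcript ENST00000373715: aatgaaaggaaaTAGaagacagtttgc
SFPQ NMD transcript ENST00000460428: attgatgttggcTGAtattggagtgct
SFPQ coding transcript ENST00000357214: aaaccccgatttTAGatgtgatattta
HNRNPD NMD transcript ENST00000513584: aagaacataaatTGAatgggaaggtga
HNRNPD coding transcript ENST00000313899: tacaaaccatacTAAattattccattt
RB1 NMD transcript ENST00000467505: acaaatggaagaTGAtctggtgatttc

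In these transcripts the stop lay 548 nt (SRSF3), 105 nt (SFPQ), 513 nt (HNRNPD) and 86 nt (RB1) before the last junction. Among all members TGA was the most frequent stop codon (58.1%), followed by TAA (22.4%) and TAG (19.4%).

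The values are FPKM, that is fragments scaled to transcript length and library size, as estimated by the authors for each transcript, and here divided by a size factor per library (0.939 to 1.07). Depth, given as the deposited coverage divided by FPKM, ranged from 0.213 in the all-isoforms library to 0.345 in the p42 library, and the number of reads is unknown. The HNRNPD gene total was 295 FPKM with control siRNA and 165 FPKM with AUF1 siRNA, against 311 FPKM with the empty vector. With the isoforms it was 3661 FPKM (p37), 3399 FPKM (p40), 4840 FPKM (p42), 3599 FPKM (p45) and 2987 FPKM (all isoforms), and in these libraries RNA of the transfected and the endogenous gene cannot be told apart. Of 5 HEK293 markers, CDH2 (108 to 129 FPKM), NEFM, LIN28B and PAX2 were above 0 in all libraries and NEFL was listed at 0. The summed markers were 159 to 196 FPKM for HEK293, 1.65 to 8.67 FPKM for fibroblasts, 0.587 to 3.49 FPKM for leukocytes and 5.06 to 278 FPKM for cervical carcinoma lines, the last mostly CDKN2A (0 to 249 FPKM). The part of these other markers in the results was not tested.

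Most NMD transcripts were not measured above 0. A total of 5242 members were listed at 0 in every library, 3629 were above 0 in at least 1 library and 658 in all 8. In a single library 19.3% to 21.7% of the NMD transcripts were above 0, against 28.5% to 31.2% of the protein-coding and 5.46% to 5.90% of the retained-intron transcripts. Those above 0 had a median of 4.11 to 4.65 FPKM, and protein-coding ones 2.53 to 2.87 FPKM. A mean of 5 FPKM or more was reached by 836 members from 785 genes, and a mean of 100 FPKM or more by 37.

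Members at a mean of 5 FPKM or more were shorter than members as a whole. The median length was 775 nt for them, 1005 nt for all members and 904 nt for those never above 0. Of the 450 members of 300 nt or more and under 500 nt, 21.3% reached that level, and of the 2356 members of 2000 nt or more, 4.41% did. Protein-coding transcripts followed the same order, with 20% and 6.79%. The share above 0 in any library ran the other way, with 38.9% of the shortest and 50.1% of the longest members. Of the members at that level, the 270 short ones (under 600 nt) were listed at 0 in at least 1 library in 51.1% of cases and the 566 longer ones in 40.5%.

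How far a member can be told from its coding relatives differed. Of the 836 members at a mean of 5 FPKM or more, 419 (50.1%) had at least 1 base outside every protein-coding transcript of the gene, 376 (45%) had only a splice junction of their own and 41 (4.90%) had neither. Exons of 233 of them (27.9%) overlapped another gene. Of these 836 members 367 (43.9%) were listed at 0 in at least 1 library, a share between that of protein-coding (33.7%) and retained-intron transcripts (56.9%) at the same level. The share listed at 0 was alike with bases of their own (43.9%) and without (43.9%).

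The highest NMD value belonged to RB1, which encodes the retinoblastoma tumour suppressor that restrains entry into the cell cycle. Its transcript ENST00000467505 (480 nt, hg19 chr13:48877911-48937044) was at 2697 FPKM with control siRNA, 1787 with AUF1 siRNA and 4369 with the empty vector. The isoform libraries were at 1635 (p37), 1943 (p40), 2525 (p42), 5204 (p45) and 9743 FPKM (all isoforms). The all-isoforms library was the highest, and both controls lay inside the range of the others. It was the only RB1 transcript above 0 among annotated transcripts within the length limit and listed for every library. It has no base of its own, only 1 junction. Against the empty vector it passed 2-fold upwards with all isoforms (log2 ratio 1.16) and downwards with p37 (-1.42) and p40 (-1.17). Against control siRNA the p37 ratio was -0.72 and the p40 ratio -0.47, neither past 2-fold.

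RPS3, a protein of the small ribosomal subunit, followed with ENST00000525690 (421 nt, chr11:75111736-75116736). It was listed at 0 with control siRNA and lay between 708 FPKM (all isoforms) and 1255 FPKM (p45) in the other 7 libraries. Among annotated transcripts within the length limit and listed for every library, no other RPS3 transcript was above 0 with control siRNA. The RPS3 sum over these transcripts was therefore 0 there. RPS3 transcripts outside these limits were not examined. The large-subunit protein RPL35A had an NMD transcript (ENST00000429437, chr3:197677077-197682688) at 229 FPKM with AUF1 siRNA to 353 FPKM with p37, which made up 42% to 55.6% of the gene. PUM3, a nucleolar protein with Pumilio repeats, had ENST00000490444 at 370 to 541 FPKM, and 96.4% to 97.8% of the gene's FPKM lay in NMD transcripts.

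Several other high transcripts share their exons with a neighbour. SERF2 ENST00000409617 (200 to 366 FPKM) has 561 bases in exons of HYPK, and TMEM14B ENST00000478732 (159 to 387 FPKM) has 128 bases in exons of MAK. The transcript ENST00000527604 of the locus AL020996.2 (152 to 307 FPKM) lies wholly in exons of MTFR1L. The protocol does not state whether the reads keep their strand, so reads of such pairs cannot be assigned to 1 gene. YWHAE, which encodes the epsilon 14-3-3 protein, had ENST00000466227 at 206 FPKM (AUF1 siRNA) to 304 FPKM (empty vector). C5orf34 had ENST00000503655 at 199 to 259 FPKM.

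NMD transcripts of splicing regulators were read from fixed gene lists. Of 14 listed SR and TRA2 genes, which bind exonic enhancers and promote exon inclusion, 10 had NMD transcripts among the members and 6 of their 18 transcripts reached a mean of 5 FPKM. Of 62 listed hnRNP and other splicing regulators, 27 had members and 15 of their 72 transcripts reached it. Among all 8871 members, 836 reached it. In the list of DNA damage response and repair, 29 of 57 genes had members and 7 of their 70 transcripts reached it. The share of all genes that had members was not computed. TARDBP, which encodes the TDP-43 protein and is known to control its own mRNA through splicing behind its stop codon, had ENST00000477447 (393 nt, chr1:11082181-11085261) at 406 FPKM with control siRNA, 306 with AUF1 siRNA and 418 with the empty vector. The isoform libraries were at 443 (p37), 388 (p40), 461 (p42), 346 (p45) and 480 FPKM (all isoforms). The AUF1 siRNA library was the lowest and no library differed from its control by 2-fold. All 409 bases of its GENCODE 29 exons also lie in exons of AL109811.4.

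SFPQ, a DNA- and RNA-binding splicing factor of nuclear paraspeckles, had 2 NMD transcripts at high levels. ENST00000460428 (chr1:35641979-35653643) was at 340, 263, 334, 344, 324, 359, 262 and 350 FPKM in the order control siRNA, AUF1 siRNA, empty vector, p37, p40, p42, p45 and all isoforms. ENST00000470472 was at 90.5, 52.4, 93.0, 72.4, 74.8, 81.9, 90.5 and 75.5 FPKM in the same order. The AUF1 siRNA library was the lowest for the second transcript and close to the p45 library for the first. They have 223 and 226 bases outside the protein-coding transcripts of the gene.

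SRSF3, an SR protein with a well known poison exon, had ENST00000477442 (chr6:36562168-36569817) between 53.3 FPKM (control siRNA) and 72.2 FPKM (p42), with AUF1 siRNA at 56.5 FPKM. Its share of the gene was 36.0% with control siRNA and 45.9% with AUF1 siRNA, and the coding transcript ENST00000373715 was at 94.9 and 66.7 FPKM. TRA2B had ENST00000456380 at 9.19 FPKM (AUF1 siRNA) to 18.7 FPKM (p42), and TRA2A had ENST00000448549 at 29.4 to 42.9 FPKM in 7 libraries and at 0 with all isoforms. SRSF6 ENST00000483871 was at 4.84 FPKM with control siRNA and 12.2 FPKM with the empty vector, a 2-fold difference between the controls themselves. HNRNPK ENST00000472778 lay between 69.4 and 81.3 FPKM in 7 libraries and was listed at 0 with p45.

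**Figure D1:**
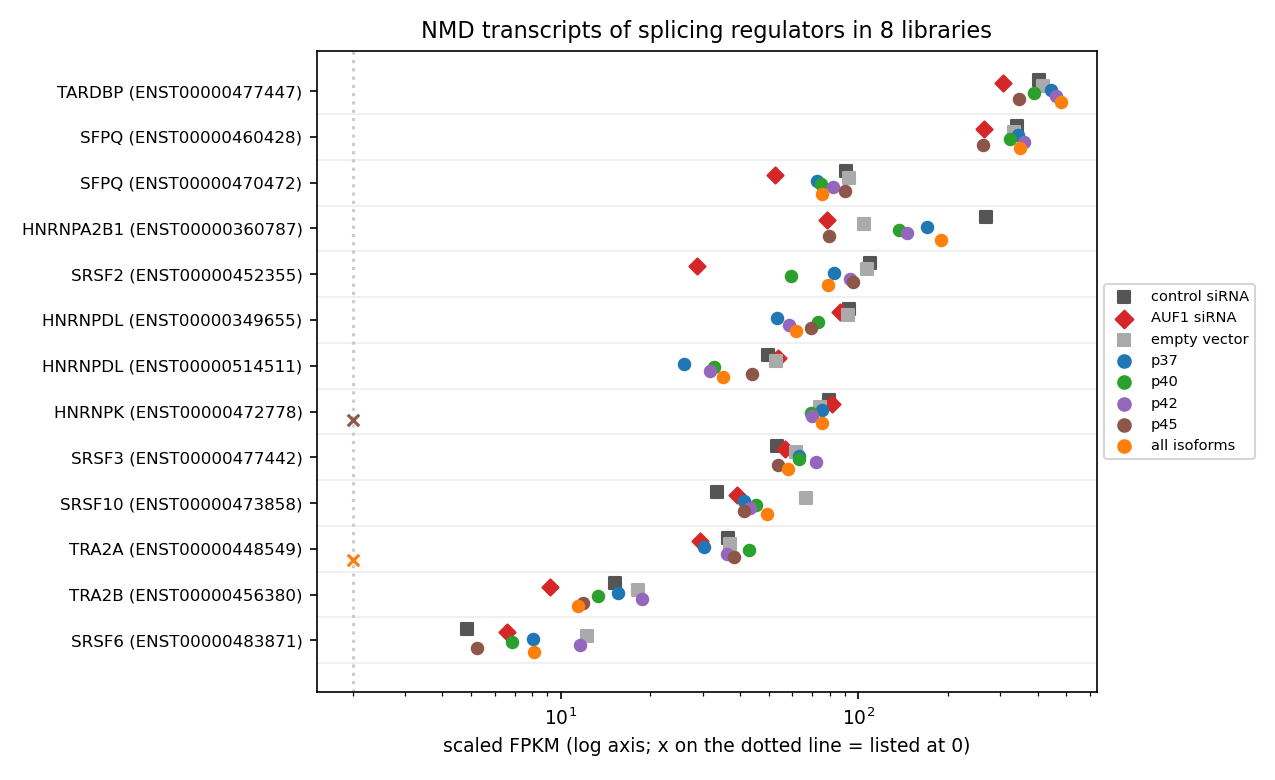
Scaled FPKM (log axis) of 13 NMD transcripts of splicing regulators, with 1 point per library and a cross on the dotted line where a transcript was listed at 0. SRSF2 with AUF1 siRNA (28.8 FPKM) lies apart from its other 7 libraries (59.5 to 109.7 FPKM), while HNRNPA2B1 spreads from 78.6 to 269 FPKM and the controls stand apart from each other.

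HNRNPDL, the closest relative of AUF1, had 2 NMD transcripts that were lower in every overexpression library than in the 3 others. ENST00000349655 (chr4:83345782-83350594) was at 92.7 FPKM with control siRNA, 87.1 with AUF1 siRNA and 92.5 with the empty vector. The isoform libraries were at 53.4 (p37), 73.2 (p40), 58.4 (p42), 69.4 (p45) and 61.6 FPKM (all isoforms). The 5 isoform libraries did not overlap the 3 libraries without a Flag-AUF1 construct. The same separation, isoform libraries lower, was found in 12 of the 836 NMD transcripts at a mean of 5 FPKM or more (1.44%) and in 1.46% of all transcripts at that level. ENST00000514511 was at 49.5, 53.9, 53.0, 25.9, 32.7, 31.7, 44.0 and 35.2 FPKM in that order, again without overlap. The log2 ratios to the empty vector were -0.78 (p37), -0.33 (p40), -0.65 (p42), -0.41 (p45) and -0.58 (all isoforms) for the first. For the second they were -1.0, -0.68, -0.72, -0.26 and -0.58, of which p37 alone reached 2-fold. Against control siRNA that ratio was -0.91, under 2-fold. These ratios share 1 empty-vector library. Another NMD transcript of the gene, ENST00000502762, was listed at 0 in the controls, with AUF1 siRNA and with p45, and lay between 8.93 and 10.7 FPKM in the other 4 libraries. NMD transcripts held 95.3% of the gene's FPKM with control siRNA and 100% in the other 7 libraries. In those 7, no annotated coding HNRNPDL transcript within the length limit and listed for every library was above 0. HNRNPDL was picked out after its values were seen.

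HNRNPD itself carried an NMD transcript that was high with 3 of the constructs. The AUF1 isoforms differ by the alternative exons 2 and 7: p37 lacks both, p40 has exon 2, p42 has exon 7 and p45 has both. ENST00000513584 (1240 nt, chr4:83276402-83295144) contains the 147-nt exon 7 and lacks both the 57-nt exon 2 and the 169-nt exon 3. It was listed at 0 with control siRNA and was at 19.4 FPKM with AUF1 siRNA and 44.1 with the empty vector. It was at 0 with p37 and p40, and at 1701 (p42), 1930 (p45) and 1551 FPKM (all isoforms) in the others. The 3 libraries with an exon 7 construct were the 3 high ones. All 8 of its values carry the status LOWDATA in the deposited tables, and the other NMD transcript of the gene was listed at 0 throughout. The coding transcripts above 0 changed with the construct as well: ENST00000503822 was at 2590 FPKM with p37 and 2585 with p42, and ENST00000509107, which has exon 2, was at 1486 with p40.

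The effect of lowering AUF1 was read from the AUF1 siRNA library against the control siRNA library. A transcript was tested when the mean of both was 5 FPKM or more and both were above 0, and called when log2((x+1)/(y+1)) was 1 or more in size. Of 672 NMD transcripts tested, 37 rose (5.51%) and 51 fell (7.59%), against 8.3% rising and 4.94% falling among all 10572 annotated transcripts tested. In both directions together 13.1% of NMD transcripts were called, beside 13.2% of all transcripts. The median log2 ratio was -0.05 for NMD and -0.07 for all transcripts. With scaling to the 75th percentile, which raises these log2 ratios by a median of 0.126, 46 NMD transcripts rose and 35 fell. Whether more NMD members fell than rose thus depended on the scaling. The split of all transcripts under that scaling was not computed. At a minimum mean of 1 FPKM, 71 rose and 66 fell.

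The 2 control libraries differ by as much as some of these comparisons. Control siRNA against empty vector called 32 NMD transcripts higher and 23 lower of 649, that is 8.47%, beside 8.4% of all transcripts (4.68% higher and 3.72% lower). On the FPKM as deposited, which shifts this ratio by a median of -0.18, the split was 15 higher and 45 lower. With the added demand of 2-fold in the same direction against the empty vector, 18 NMD transcripts rose in the AUF1 siRNA library (2.68%, all transcripts 5.17%) and 9 fell (1.34%, all transcripts 1.39%). For 5 of the 18 the empty vector was listed at 0.

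**Figure D2:**
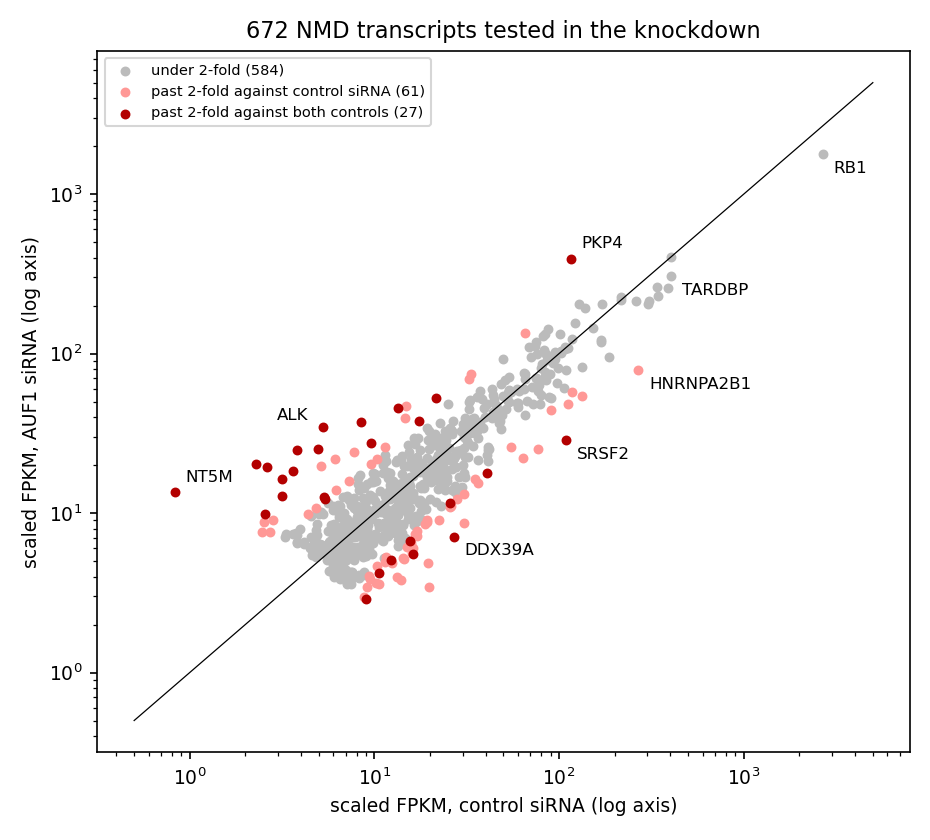
Scaled FPKM with control siRNA (x, log axis) and AUF1 siRNA (y, log axis) for the 672 NMD transcripts tested, 1 point per transcript, with the line of equal values. Of these, 27 passed 2-fold against both control libraries (dark red), and SRSF2 and PKP4 are the ones among them near or above 100 FPKM.

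SRSF2, the SR protein SC35, had the lowest ratio among the NMD transcripts that fell against both controls. ENST00000452355 (1341 nt, chr17:74730201-74733415), whose window with the shared stop codon is printed above, was at 109.7 FPKM with control siRNA, 28.8 with AUF1 siRNA and 107 with the empty vector. The isoform libraries were at 82.6 (p37), 59.5 (p40), 93.8 (p42), 95.9 (p45) and 78.9 FPKM (all isoforms). The AUF1 siRNA library was the lowest and p40 the next. The log2 ratio was -1.90 to control siRNA and -1.86 to the empty vector. The deposited bounds, which cover estimation within a library only, were 101 to 118 FPKM and 23.7 to 33.8 FPKM in the siRNA pair. The coding transcript ENST00000359995 was at 15.1 FPKM with control siRNA and listed at 0 with AUF1 siRNA and with p40. Both of these values of 0 carry the status LOWDATA. Of the NMD transcript's exons, 819 bases also lie in exons of MFSD11, so their reads cannot be assigned to 1 gene.

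Other members that fell against both controls were lower in level. DDX39A encodes a DEAD-box helicase of mRNA export, and its ENST00000324340 (chr19:14519633-14530141) was at 27.1 FPKM with control siRNA, 7.12 with AUF1 siRNA and 21.0 with the empty vector. Its values with the isoforms were 21.6 (p37), 27.2 (p40), 10.1 (p42), 14.6 (p45) and 17.7 FPKM (all isoforms), so AUF1 siRNA was the lowest of the 8. The coding DDX39A transcript ENST00000242776 did not fall with it (15.4 FPKM with control siRNA, 20.4 with AUF1 siRNA), and the NMD share of the gene went from 56.9% to 25.8%. ANKRD11, a chromatin regulator, had ENST00000378332 at 40.5 FPKM with control siRNA, 18.0 with AUF1 siRNA and 46.3 with the empty vector, with the status LOWDATA in all 8 libraries. USP30, a mitochondrial deubiquitinase, had ENST00000377883 at 15.6, 6.66 and 18.0 FPKM, and CHORDC1, a partner of HSP90, had ENST00000533772 at 25.6, 11.6 and 27.3 FPKM. With 75th-percentile scaling these last 2 ratios were -0.99 and -0.95, just short of 2-fold. BCAP29 (16.2 to 5.55 FPKM), FAM151B (9.01 to 2.90 FPKM), RIOX2 (10.6 to 4.2 FPKM) and CBWD2 (12.3 to 5.08 FPKM) make up the rest of the 9.

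PKP4, a plakophilin of cell junctions, was the highest NMD transcript among those that rose. ENST00000457109 (520 nt, chr2:159313626-159477534) was at 116 FPKM with control siRNA, 393 with AUF1 siRNA and 149 with the empty vector. The isoform libraries were at 194 (p37), 202 (p40), 216 (p42), 101 (p45) and 165 FPKM (all isoforms). The AUF1 siRNA library stood above the other 7. The log2 ratio was 1.75 to control siRNA and 1.40 to the empty vector, with deposited bounds of 98.8 to 134 FPKM and 370 to 417 FPKM in the siRNA pair. Among annotated transcripts within the length limit and listed for every library, it was the only PKP4 one above 0 with AUF1 siRNA (100%). It held 56.2% of the gene with control siRNA. There, ENST00000462335, annotated as a processed transcript, was at 61.1 FPKM and the coding ENST00000389759 at 7.59 FPKM.

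The other risers were lower in level in the control. ALK encodes a receptor tyrosine kinase of the nervous system, and its ENST00000431873 (1353 nt, chr2:29416090-30143525) was at 5.26 FPKM with control siRNA, 34.8 with AUF1 siRNA and 8.82 with the empty vector. With the isoforms it was at 8.23, 12.3, 7.78, 18.3 and 7.71 FPKM (p37, p40, p42, p45, all isoforms), so AUF1 siRNA was the highest and p45 the next. The coding ALK transcript ENST00000389048 moved in the same direction, from 0.323 to 1.3 FPKM. CDH13, a cadherin anchored to the membrane by a lipid, had ENST00000539548 at 8.41 FPKM with control siRNA, 37.2 with AUF1 siRNA and 6.66 with the empty vector, and 100% of the gene's FPKM was in NMD transcripts in all 8 libraries. AK5, an adenylate kinase of the brain, had ENST00000527263 at 4.92, 25.1 and 6.46 FPKM. NT5M, a mitochondrial nucleotidase, had the largest log2 ratio (2.99) with ENST00000470418 at 0.829, 13.6 and 3.75 FPKM. RNF212 (2.27 to 20.3 FPKM), ZBTB3 (2.61 to 19.6 FPKM), ST3GAL4 (3.82 to 24.9 FPKM), CAPN5 (3.6 to 18.5 FPKM) and OPN3 (3.14 to 16.5 FPKM) complete the 10 largest ratios. RNF212 and OPN3 were listed at 0 with the empty vector, and the control siRNA values of NT5M, ZBTB3 and OPN3 had a deposited lower bound of 0.

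HNRNPA2B1, which encodes the hnRNP A2 and B1 proteins, shows how the control decides a call. ENST00000360787 (1724 nt, chr7:26229745-26240366) was at 269 FPKM with control siRNA, 78.6 with AUF1 siRNA and 104 with the empty vector. The isoform libraries were at 170 (p37), 137 (p40), 146 (p42), 79.7 (p45) and 189 FPKM (all isoforms). It fell against control siRNA (log2 ratio -1.76) but not past 2-fold against the empty vector (-0.40), and the controls differed from each other by 1.36.

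The rest of the gene often did not move with the member. Of the 37 NMD transcripts that rose with AUF1 siRNA, the other transcripts of the gene moved in the same direction for 15, past 2-fold for 4, and 5 had no other transcript above 0. Of the 51 that fell, these counts were 17, 7 and 6. The same counts were not made over all called transcripts, so whether this is particular to NMD transcripts was not tested. Deposited bounds did not overlap for 31 of the 37 and 45 of the 51, which is 11.3% of those tested, beside 11% of all transcripts. Another 85 members were listed at 0 in the control siRNA library only (10.2% of 830, beside 7.87% of all transcripts), and 73 in the AUF1 siRNA library only (8.80%, beside 7.26%).

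Few members of the pathway lists were tested with AUF1 siRNA. Summed over the 8 lists, 6 of 38 were called (15.8%), and all 6 fell. Among all NMD transcripts tested 13.1% were called and 7.59% fell, and 4.94% of all transcripts fell. SRSF2 alone of the 6 also passed 2-fold in the same direction against the empty vector. The list medians lay below the all-transcript median of -0.07 in all 8, each over only 2 to 12 tested members. Among proteasome subunits both tested members fell: PSMD3 ENST00000415039 from 36.4 to 15.5 FPKM and PSMD13 ENST00000382671 from 17.1 to 7.73 FPKM. Against the empty vector (28.0 and 14.3 FPKM) neither passed 2-fold, with log2 ratios of -0.81 for each. In DNA damage response and repair 2 of 5 fell: RAD51C ENST00000482007, of a recombination factor, from 30.5 to 13.2 FPKM, and PARP2 ENST00000529465, of a DNA-break sensor, from 22.3 to 9.01 FPKM. RAD51C was at 16.9 FPKM with the empty vector and PARP2 was listed at 0 there. Of the SR and TRA2 list 1 of 6 fell (SRSF2) and of the hnRNP list 1 of 12 (HNRNPA2B1). None of 3 ribosomal protein, 6 translation factor, 2 chaperone and 2 NMD factor transcripts was called.

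The factors of the NMD pathway were read as gene sums over the annotated transcripts within the length limit and listed for every library. With AUF1 siRNA, 4 of 27 tested fell. Among all 9678 genes tested 483 fell and 1055 rose, which is 15.9% in either direction. XRN1, the 5′ to 3′ exonuclease that degrades decapped RNA, went from 33.4 to 5.05 FPKM, against 27.4 FPKM with the empty vector. CASC3, a core protein of the exon junction complex, went from 30.6 to 13.9 FPKM, and NBAS from 9.61 to 3.84 FPKM. XRN1 was as low with p40 (5.72 FPKM) and p42 (4.11 FPKM), and CASC3 with p40 (15.2 FPKM), p42 (14.8 FPKM) and p45 (14.1 FPKM), where the empty vector was at 34.5 FPKM. The decapping enzyme DCP2 went from 9.47 to 4.13 FPKM, but the empty vector was at 49.7 FPKM. UPF1 was at 7.01 and 7.95 FPKM.

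Overexpression of single isoforms called about as many NMD transcripts as of all transcripts, or fewer. With p37, 16 rose and 17 fell of 707, that is 4.67%. Among all transcripts 5.42% were called, 2.63% rising and 2.8% falling. With p40, 16 rose and 15 fell of 699 (4.43%), beside 6.75% of all transcripts (3.53% and 3.22%). With p42, 18 rose and 16 fell of 689 (4.93%), beside 5.72% (2.96% and 2.76%). With p45, 19 rose and 31 fell of 672 (7.44%), beside 8.04% (4.34% and 3.7%). With all isoforms, 23 rose and 19 fell of 689 (6.10%), beside 6.56% (3.08% and 3.48%). Each comparison used the same empty-vector library, and control siRNA against that library gave 8.47%, more than any isoform. The split by direction depended on scaling: at the 75th percentile it was 22 up and 11 down for p37, 22 and 10 for p40 and 27 and 11 for p42. On the values as deposited it was 13 up and 31 down for p40 and 15 and 21 for p42. For p45 more fell than rose under each scaling (22 up and 27 down at the 75th percentile, 18 and 38 as deposited), and for all isoforms more rose (24 and 15, 25 and 19).

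**Figure D3:**
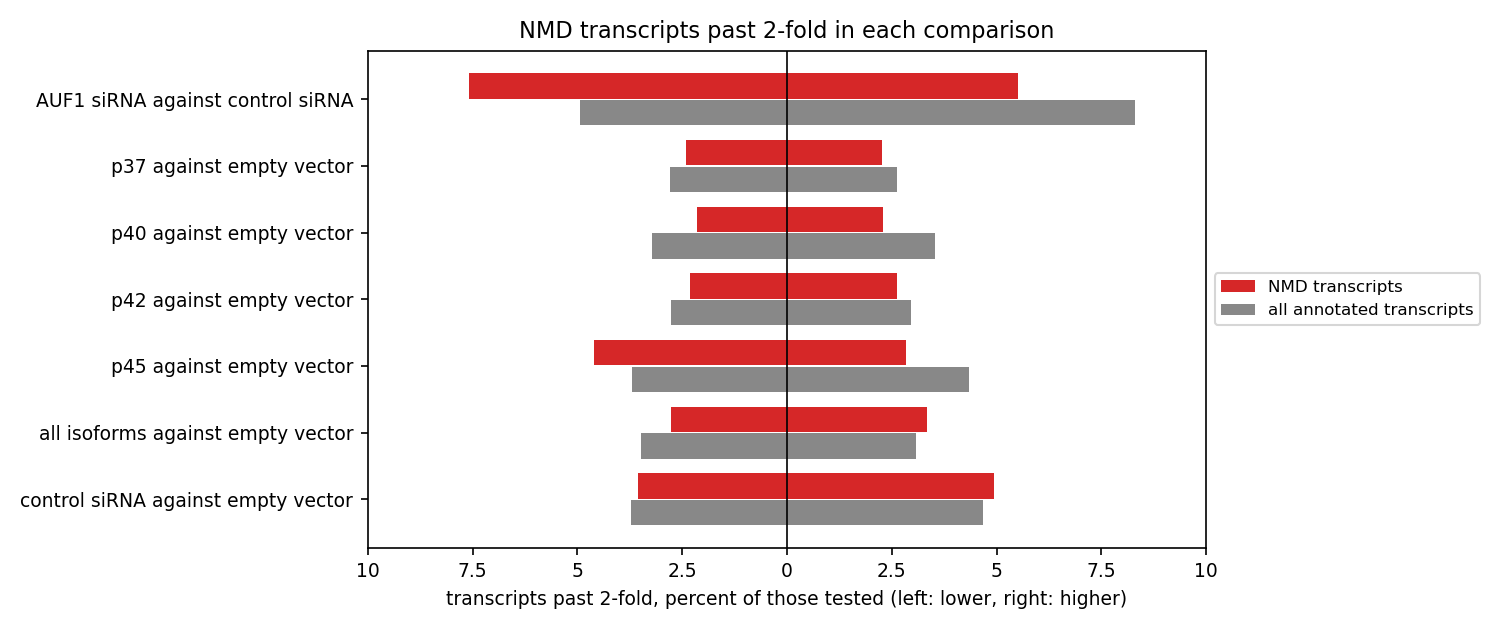
Percent of tested transcripts that passed 2-fold, lower to the left and higher to the right of 0, for NMD transcripts (red) and all annotated transcripts (grey) in 7 comparisons of 1 library each. NMD transcripts with AUF1 siRNA reached 7.59% lower and 5.51% higher, while all transcripts reached 4.94% and 8.3%.

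Few members passed 2-fold in the same direction against both controls. With p37 there were 6 higher and 1 lower, where 0.831% and 0.793% of all transcripts were. With p40 there were 5 and 1 (all transcripts 1.4% and 1.03%), and with p42 9 and 4 (1.01% and 0.892%). With p45 there were 9 and 10 (1.92% and 1.19%), and with all isoforms 10 and 2 (1.23% and 1.3%). Of these higher transcripts, control siRNA was listed at 0 for 3 (p40), 5 (p42), 5 (p45) and 3 (all isoforms). SMIM7, a small membrane protein, changed between its 2 main NMD transcripts (both chr19, starting at 16741575 and 16741578). ENST00000481671 was at 11.6 FPKM with control siRNA, 5.27 with AUF1 siRNA, 10.5 with the empty vector. In the isoform libraries it was at 9.30 (p37), 2.52 (p40) and 1.90 FPKM (p42), and listed at 0 with p45 and all isoforms. ENST00000465250 was at 0, 8.54, 2.65, 2.30, 11.6, 6.46, 14.8 and 10.9 FPKM in the same order. The libraries high for one transcript were low for the other, with p37 beside the controls. Each has exons that overlap a neighbouring locus (540 and 695 bases).

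With p37, C11orf80 ENST00000531400 went from 24.3 FPKM with the empty vector to 68.5 FPKM and TRIM16 ENST00000494759, of a tripartite-motif protein, from 23.9 to 63.0 FPKM. In the AUF1 siRNA library the same 2 transcripts were also high, at 52.5 and 48.0 FPKM. TAF13 ENST00000461096, of a subunit of the transcription factor TFIID, fell from 9.04 to 2.55 FPKM with p37. With p40, MRPL42 ENST00000358678, of the mitochondrial ribosome, went from 4.64 to 16.3 FPKM, but was listed at 0 in 4 libraries, control siRNA among them. TRIO ENST00000512070, of a guanine-nucleotide exchange factor, went from 6.56 to 15.1 FPKM.

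With p42, BLOC1S1-RDH5 ENST00000257899 fell from 39.0 to 12 FPKM. Its exons overlap those of RDH5. GRK3 ENST00000455558, of a receptor kinase, fell from 33.4 to 10.9 FPKM. For GRK3 the other 7 libraries lay between 23.0 and 34.8 FPKM. NKTR ENST00000429888 went from 3.65 to 13.2 FPKM, and STIMATE ENST00000467979, of a calcium-signalling regulator, from 13.5 to 36.1 FPKM. STIMATE was also at 35.2 FPKM with all isoforms, and its exons overlap a read-through gene. With p45, CHORDC1 ENST00000533772 fell from 27.3 to 9.03 FPKM and RIOX2 ENST00000514314 from 13.0 to 3.78 FPKM, both of which also fell with AUF1 siRNA against control siRNA. CDH13 ENST00000539548 (20.3 FPKM) and AK5 ENST00000527263 (19.4 FPKM) were high with p45 as well as with AUF1 siRNA. With all isoforms, PFDN5 ENST00000243040, of the prefoldin chaperone, fell from 45.1 to 20.4 FPKM and was at 25 FPKM with AUF1 siRNA and 76.9 FPKM with control siRNA. TSPAN5 ENST00000511800, of a tetraspanin, fell from 35.0 to 11.4 FPKM and was listed at 0 with AUF1 siRNA and p45.

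Some members appeared in 1 or 2 libraries only. XRCC5 ENST00000451695, of the Ku80 repair protein, was at 184 FPKM with all isoforms and 0 in the other 7. RBM39 ENST00000455343 was at 152 FPKM with the empty vector and 0 in the other 7, with a failed estimate in the p40 library. RPL13A ENST00000484279 was at 174 FPKM with p42 alone, and CHEK1 ENST00000498122 at 33.5 FPKM with the empty vector and 31.3 FPKM with p37. EIF4G2 ENST00000531647 was at 164 FPKM with the empty vector and 157 FPKM with all isoforms. A value of 0 in such a table can be a failed estimate, as for RBM39 with p40. The CHEK1 transcript had the status OK in every library, its values of 0 included. No fold change is given for any of these.

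The steadiest members were those above 0 in all libraries. Of 469 members with a mean of 5 FPKM or more that were never listed at 0, 279 (59.5%) stayed within 2-fold over all 8 libraries. The AUF1 siRNA library held the lowest value for 92 of the 469 and the control siRNA library for 88, and these 2 libraries held the highest value for 49 and 77. The same counts were not made over all transcripts, so they do not tell NMD transcripts from all transcripts.

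The share that NMD transcripts took of a gene's FPKM, summed over its annotated transcripts, was then described. Of 1979 host genes with 5 FPKM or more in every library, 824 had any NMD transcript above 0 with control siRNA and 866 with AUF1 siRNA, and the median share was 0% in every library. The mean share per gene was 21.5% to 22.6% over the libraries, and NMD transcripts made up more than 50% of the FPKM for 409 to 429 genes. The steps between genes were wide: with control siRNA 1155 genes were at 0% and 92 at 100%.

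Among the 866 host genes of 20 FPKM or more in every library, 376 had no NMD transcript above 0 in any library, 105 had more than 50% in all 8, and 52 had 0% in one library and over 50% in another. A share of 100% in all 8 libraries was held by 19 genes, which therefore tied for the highest rank: APOLD1, CHRNA7, COA1, DLD, H2AFX, HIRA, JAZF1, NEDD8-MDP1, NOS1AP, PDCD5, POLR2J3, POLR2L, RB1, RUVBL2, SERF2, TMEM14B, TVP23C-CDRT4, UBE3D and ZBTB16. HIRA, a histone chaperone, was at 215 FPKM (control siRNA) to 330.3 FPKM (p40), and JAZF1, a zinc-finger cofactor, at 169 FPKM (control siRNA) to 261 FPKM (all isoforms). RUVBL2, a AAA+ ATPase of chromatin remodelling, was at 33.7 to 45.4 FPKM and PDCD5 at 76.5 to 109 FPKM. For DLD, the shared dehydrogenase subunit of mitochondrial 2-oxoacid complexes, the range was 26.3 to 44.7 FPKM. A gene at 100% had no coding transcript above 0 among annotated transcripts within the length limit and listed for every library. This held also where its protein is needed by every cell, so the shares describe the authors' transcript estimates. Transcripts outside these limits were not examined.

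Summed over the 1979 host genes, NMD transcripts took 18.7% of the FPKM with control siRNA, 19% with AUF1 siRNA and 21.0% with the empty vector. In the isoform libraries they took 18.6% (p37), 18.6% (p40), 20.4% (p42), 21.8% (p45) and 25.5% (all isoforms). The all-isoforms library was the highest. RB1 alone accounted for much of this spread: without it the range was 16.8% to 19.1%. With HNRNPD, the transfected gene, left out too, the shares were 16.8% (control siRNA), 17.6%, 17.9%, 18.0%, 17.8%, 18.0%, 17.0% and 18.2% in the same order. Over the genes expressed in both libraries of a pair, the difference was 0.40 percentage points for AUF1 siRNA minus control siRNA, and 0.89 points without RB1 and HNRNPD. Its size and sign depended on the setting: it was 3.19 points with status OK only, and -1.91 points against the empty vector. Control siRNA minus empty vector gave -2.56 points, -1.43 points without those genes and -1.88 points with status OK only. Without those genes the isoforms differed from the empty vector by -0.82 points (p45) to 0.03 points (p42 and all isoforms).

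**Figure D4:**
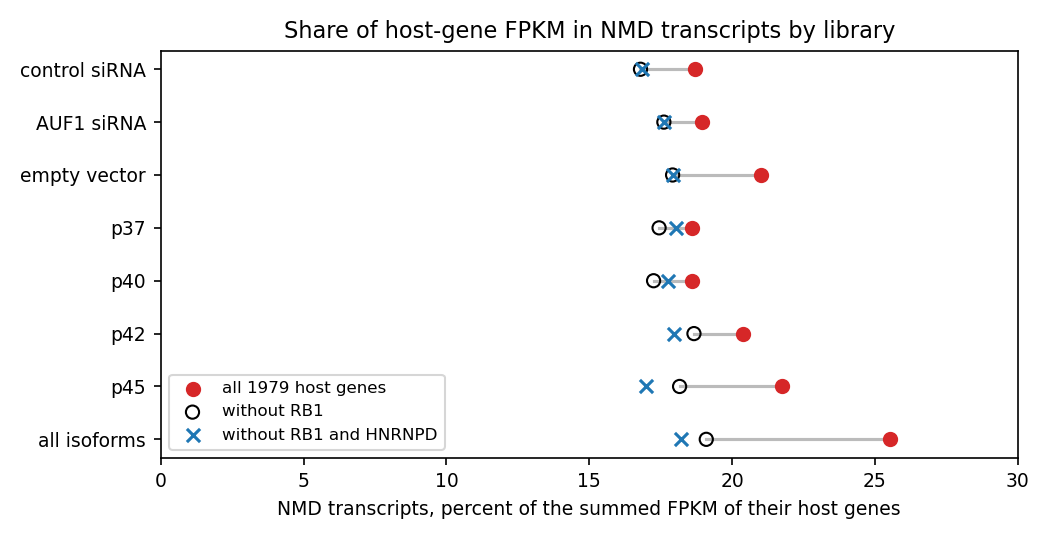
NMD transcripts as a percent of the summed FPKM of their 1979 host genes in each of 8 libraries: filled circles, all host genes; open circles, without RB1; crosses, without RB1 and HNRNPD. The all-isoforms library goes from 25.5% to 19.1% and 18.2%.

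For single genes the shares moved widely in both directions. With AUF1 siRNA, the share of NMD transcripts rose by 20 percentage points or more in 220 of 1169 host genes (18.8%) and fell in 193 (16.5%). In both directions 35.3% of the NMD shares shifted, beside 25.6% over all pairs of a gene and a transcript type. Of 548 retained-intron shares, 90 rose and 128 fell. Between the 2 controls, 199 NMD shares rose and 233 fell of 1181, that is 36.6%, where 26.2% of all pairs shifted. With the isoforms, 32.0% of NMD shares shifted in the p37 comparison, where 22.9% of all pairs did. The p40 library gave 35.1% (all pairs 24.7%) and the p42 library 32.8% (22.9%). The p45 library gave 36.0% (25.3%) and the all-isoforms library 32.6% (24%). The NMD share of shifted genes was above that of all pairs in each comparison, the pair of controls included. Retained-intron shares shifted more often still in each, from 38.1% (p42) to 42.6% (the 2 controls). Protein-coding shares shifted less often, from 18.1% (p42) to 21.2% (the 2 controls), so the excess over all pairs was not particular to NMD transcripts.

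AUF1 is known to bind AU-rich elements, of which the pentamer ATTTA is the core, so the 300 bases after each stop codon were searched for it on the transcript strand. It was present in 21.8% of 7060 NMD transcripts with such a window and in 36.0% of 30727 protein-coding ones. Only 10.3% of all members share their stop codon with a coding transcript. The windows of NMD and coding transcripts thus often cover different parts of a gene, and the percentages compare unlike stretches. With AUF1 siRNA, the median log2 ratio was -0.18 for 129 tested NMD transcripts with ATTTA and -0.13 for 365 without. For protein-coding transcripts the medians were -0.24 (1010) and -0.20 (1540). A match is a description of the letters and no binding site.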

How the data were processed

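The deposited tables hold 1 FPKM value per transcript and library, with bounds, a status and a coverage column, per the file headers. The listed tools are TopHat2 (2.0.6), Cufflinks (2.0.2) and Cuffdiff, and the build is hg19, per the submitters' processing notes. Those sources do not give which annotation release was used. Per the labels' protocols, RNA was amplified by single-primer isothermal amplification before library preparation. The coverage signal deposited by the authors divided by FPKM served as relative depth, which sets no interval because read numbers are unknown.

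Transcript types, symbols, exons and sequences came from GENCODE 29, which held 15283 NMD transcripts, of which 8897 were in all 8 tables. Coordinates are hg19 positions of the tables. Table and GENCODE lengths were equal for 89.1% of members. Each library's FPKM was divided by a median-of-ratios factor over 11825 of 38330 gene sums (minimum 1 FPKM). Ratios used a pseudocount of 1 FPKM, a mean of 5 FPKM or more, both values above 0 and no failed status, with calls at 2-fold, so they understate changes of low transcripts. The added ratio to the other control allowed 0 in that control. Gene FPKM is the sum over annotated transcripts within the length limit and listed for every library, so other transcripts of a gene were not counted. Shares are NMD FPKM over gene FPKM, with shifts called at 20 percentage points. With 1 library per group no test was possible, and counts stand beside those over all annotated transcripts. The calling steps were tested on simulated data. Python 3.11.15, pandas 2.3.3, numpy 2.4.6 and matplotlib 3.10.9 were used.

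Named transcripts were the 12 highest with status OK in all 8 libraries, the largest ratios past 2-fold against both controls (10 each way for the knockdown, 4 for each isoform), the 10 host genes with the highest share (19 tied), and members of fixed gene lists at a mean of 5 FPKM or more. The members and lists were chosen with earlier results of these data known. Alternatives were other scalings, pseudocounts, minimum levels, status, length and host-gene filters, weighting by transcript length and the other control. One result among the NMD factor genes is not reported here.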

Additional observations from a re-analysis of the deposited data

How the results depend on the processing

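No paired analysis was possible because each group held 1 library. For the same reason no replicate could be left out. Counts of called NMD transcripts moved mostly with the minimum level and with zeros. Including transcripts listed at 0 gave 122 higher and 124 lower with AUF1 siRNA, and 195 (p37), 209 (p40), 211 (p42), 244 (p45), 209 (all isoforms) and 257 (control siRNA against empty vector) in all. The number tested was then 830 with AUF1 siRNA and 851 to 877 in the other comparisons. At a minimum mean of 1 FPKM there were 71 higher and 66 lower with AUF1 siRNA (1063 tested), and 59, 52, 55, 87, 78 and 92 in the same order (967 to 1071 tested). At a minimum mean of 20 FPKM there were 11 higher and 14 lower (236 tested), then 5, 6, 8, 7, 13 and 15 (239 to 253 tested). Restricted to members with bases of their own, a choice made after seeing the data, there were 19 higher and 22 lower (321 tested), then 14, 14, 17, 27, 21 and 23 (323 to 348 tested). A pseudocount of 0.1 FPKM gave 52 calls for p40. Against control siRNA in place of the empty vector, p40 had 50 calls and p42 had 59. The share over all transcripts was not computed at these settings, so these counts do not tell NMD transcripts from all transcripts. The difference in NMD share was 3.19 points for AUF1 siRNA with status OK only and -1.91 points against the empty vector. For all isoforms it was 3.99 points, but 0.62 with status OK only, 0.85 without RB1, 0.03 without RB1 and HNRNPD and 6.75 against control siRNA; leaving out these genes was chosen after seeing the data. Over 51 ratios of named transcripts, 2 fell short of 2-fold under 75th-percentile scaling and 1 on the values as deposited, and no sign changed. These 51 had been picked as past 2-fold the same way against both controls, so the other control could not change them. A smaller pseudocount could only enlarge them. Relative depth ranged from 0.213 to 0.345, so transcripts near 5 FPKM are the least certain.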
